A study of Mus musculus with 214 samples.

Results

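The 10 genes described here are targets of p53 that act in cell death: Bax, Bbc3, Pmaip1, Bcl2l1, Fas, Tnfrsf10b, Eda2r, Aen, Phlda3 and Perp. They were taken by symbol, and all 10 were found among the 18647 genes of the WT table and the 19540 genes of the Mgmt-/- table. Levels were read in livers of C57BL6 mice that all carried the RaDR and GPT transgenes on both alleles, used here as WT, or that also lacked both alleles of Mgmt, the enzyme that removes methyl groups from the O6 position of guanine. NDMA, a methylating nitrosamine activated in hepatocytes, was injected at 3.5 mg/kg on postnatal day 8 and at 7 mg/kg on postnatal day 15, and controls received saline on the same days. Livers were collected early, on day 1, 2 or 5 after treatment, or late, after 10 weeks or 10 months. The questions were which of the death genes were higher after NDMA, which of them were higher only early and which stayed higher, in each genotype.

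p53 is a transcription factor that is stabilized when DNA is damaged. One set of its targets acts at the mitochondrion: the BH3-only proteins made from Bbc3 (PUMA) and Pmaip1 (NOXA) bind the guardians of the outer membrane, of which Bcl-xL, the long product of Bcl2l1, is one, and BAX then forms the pores that release cytochrome c. A second set encodes death receptors at the cell surface: Fas, Tnfrsf10b, the mouse receptor for TRAIL, and Eda2r, the receptor for ectodysplasin A2. Aen encodes a nuclease of apoptotic cells, Phlda3 a protein that competes with AKT for membrane lipids and so lowers survival signalling, and Perp a membrane protein of desmosomes that also takes part in p53-dependent death. Bcl-xL is the member whose main product protects cells, and hepatocytes depend on it.

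The letters of the p53 response element were sought near the start sites of the members, and the matches are shown because binding of p53 is what the members have in common by definition. RefSeq windows of 250 bases before to 50 bases after a start site (GRCm38.p6) were held for 7 members, namely Bax, Bbc3, Fas, Aen, Phlda3, Eda2r and Bcl2l1. The p53 response element was searched as its 20 bases without a spacer, with at most 3 mismatches and with the core bases kept, on both strands, which is the same search since the element is its own reverse complement. Matches lay in 1 of the 3 Bbc3 windows and in both Aen windows, which share the same bases, and none lay in the windows of the other 5 genes. Of all 32851 windows, 1.38% held a match. In each sequence the element is in capitals between flanks of 5 bases.
Bbc3: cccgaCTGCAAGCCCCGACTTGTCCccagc
Aen: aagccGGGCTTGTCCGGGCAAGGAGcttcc
The Bbc3 match lies on the plus strand at chr7:16309486-16309505, 97 bases before a start site. The Aen match lies at chr7:78895937-78895956, 121 bases before 1 start site and after another. Each differs from the element at 3 bases.

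In the GENCODE annotation of GRCm38, Bax lies at chr7:45461697-45466898 on the minus strand and Bbc3 at chr7:16308393-16318205 on the plus strand. Aen lies on the same chromosome at chr7:78895854-78911209, plus strand. Bcl2l1 lies at chr2:152780668-152831728 and Eda2r at chrX:97333840-97377216, both on the minus strand. Fas lies at chr19:34290666-34327772, Tnfrsf10b at chr14:69767472-69784411, Phlda3 at chr1:135766119-135769136 and Perp at chr10:18845020-18857073, all on the plus strand. Bax shares bases with Gm45808 and Fas with Gm27818, each on its own strand, so reads of these pairs may not be told apart.

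Of 214 labelled samples, 213 libraries had values, 117 of WT mice and 96 of Mgmt-/- mice, each with its own code and taken as its own mouse. From day 1 to month 10, the NDMA and saline groups of WT mice held 26 and 21, 8 and 8, 8 and 7, 8 and 8, and 13 and 10 animals. The Mgmt-/- groups held 12 and 12, 8 and 7, 8 and 8, 8 and 8, and 13 and 12 animals. Reads were recovered for 209 libraries and ran from 150038 to 4791649 in WT, with a median of 1710016, and from 713584 to 7740710 in Mgmt-/-, with a median of 2347670. Values are normalized counts, that is, counts divided by a size factor for each library. The genotypes were normalized separately, so a level in one is not on the scale of the other. Levels of different genes were not compared, since a tag at the 3′ end of a transcript carries no length scale.

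The labels were checked first. Mgmt itself ranged from 13.0 to 130 normalized counts, with a median of 45.8, in the WT libraries, and from 0 to 9.67, with a median of 1.15, in 94 Mgmt-/- libraries, each on the scale of its own table. Alb, the albumin gene of hepatocytes, was at 25256 normalized counts or more in all of these libraries. In the 2 other libraries, both Mgmt-/- saline livers of day 5, Alb had a median of 344 normalized counts and Kap, a kidney transcript, a median of 6855. Kap reached 13.9 at most elsewhere. Both were left out, which left 6 saline livers in that group.

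In WT, 5 libraries stood apart. Mice D209072 and D209077, labelled NDMA day 1, had sex-linked transcripts opposite to their labelled sex, with Bax at 37.3 and 28.5 normalized counts, Phlda3 at 0 and 2.72, and Eda2r at 1.17 and 0. Both Bax values lie under the NDMA median of that day, 68.0. The library labelled saline from D209074 at day 1 had Bax at 191, Phlda3 at 40.6 and Eda2r at 16.9. In the library labelled saline from D215004 at day 2, Bax was at 81.1, Phlda3 at 38.6 and Eda2r at 34.8, and in that from D215012 at day 5, Bax was at 83.8, Phlda3 at 11.7 and Eda2r at 3.35. Cdkn1a, the p53 target that arrests the cell cycle, was at 30.3 and 16.3 in the 2 NDMA libraries and at 359, 212 and 109 in the 3 saline ones, against a saline median of 15.1 at day 1. All 5 stayed in their labelled groups. The 3 saline libraries stand out by the members' own levels, so leaving them out favours a difference between the groups. Values without these libraries stand beside the WT results of Bax, Phlda3 and Eda2r and in the tests between times and genotypes, and the fits with no filter on low values were not repeated without them.

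For each time and genotype, NDMA was compared with saline by limma, with log2(normalized count + 1) as the response and terms for sex and batch. P-values were adjusted over every gene whose mean reached 5, and a gene counted as called at an adjusted p under 0.05 and a log2 fold change beyond 0.58. Because 1 is added before the log, fold changes of low genes are understated. P-values measure the spread between mice. In these bulk samples, fewer cells of a type and less RNA per cell cannot be told apart.

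Across Mgmt-/- livers the members fell into 3 courses. Bax, Phlda3 and Eda2r were called higher at days 1, 2 and 5 and again at week 10. Pmaip1 and Fas were called higher at days 1, 2 and 5. Bbc3, Aen, Perp and Bcl2l1 were called higher at day 1 alone, and Tnfrsf10b stayed under the filter on low values at every time. These courses depend on the filter: Aen passed it at day 1 alone, Bbc3 was under it at days 2 and 5, and with no filter Aen was called at day 2 too, Pmaip1 at week 10 too and Tnfrsf10b at each early time. At month 10 no member was called higher and Perp was called lower.

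Among WT mice Bax and Phlda3 were called higher at days 1, 2 and 5 and Eda2r at days 1 and 2, and no member was called in either direction at week 10 or month 10, by limma, edgeR or DESeq2, and none that passed the filter had an unadjusted p under 0.05 in any of them. The other 7 members were not called at any time, and of these Pmaip1, Tnfrsf10b and Aen were under the filter throughout. Without all 5 libraries that stood apart, limma called the same members at each early time, with log2 fold changes of Bax of 2.00, 2.01 and 1.67.

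**Figure D1:**
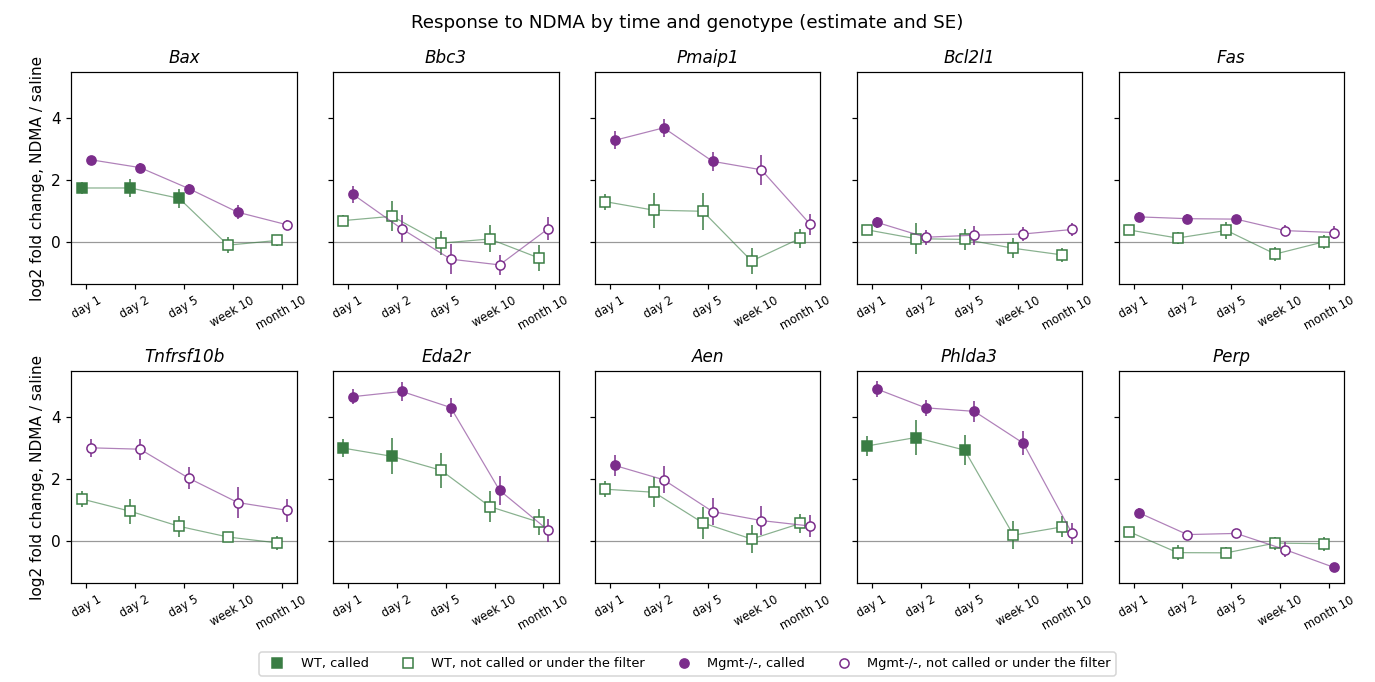
Log2 fold change of NDMA over saline (y axis, limma estimate with its SE as a bar) for each member at the 5 times (x axis), WT as green squares and Mgmt-/- as purple circles, filled where called and open where not called or under the filter on low values. Phlda3 and Eda2r have the highest Mgmt-/- estimates at day 1, 4.92 and 4.67, and Perp is the only filled point below 0, at month 10.

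The share of all tested genes called higher sets the scale for these counts. From day 1 to month 10, 9.06%, 12.4%, 11.1%, 7.27% and 4.75% of genes were called higher in Mgmt-/- livers, and 2.99% were called lower at the last of these times. The WT shares were 5.01%, 3.33%, 2.22%, 0.0249% and 0%. At WT week 10, limma called 2 genes higher and edgeR 0, DESeq2 called 3 higher and 2 lower, and 350 genes had an unadjusted limma p under 0.05. At WT month 10, 757 genes had an unadjusted limma p under 0.05, and edgeR called 0 and DESeq2 1. Of the 10 members, those called higher numbered 9, 5, 5, 3 and 0 in Mgmt-/- and 3, 3, 2, 0 and 0 in WT, in the same order. The filter passed 9, 7, 7, 7 and 5 members in Mgmt-/- and 6, 6, 5, 4 and 5 in WT. A gene near 0 in saline, such as Phlda3 or Eda2r, passes the filter only through its NDMA level and so had to differ, which is why the 10 members are counted rather than those that passed.

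Bax and Phlda3 were called in the most comparisons, 7 of 10 each. The Bax normalized count in Mgmt-/- saline livers of day 1 ran from 17.5 to 47.4 with a median of 27.7, and in NDMA livers from 121 to 324 with a median of 170. All 12 NDMA livers lay above every saline liver, and the log2 fold change was 2.65 ± 0.14 (SE, limma adjusted p = 7.0e-18). At day 2 the saline livers ran from 13.9 to 27.1 and the NDMA livers from 98.9 to 147, again without overlap (2.40 ± 0.16, limma adjusted p = 1.2e-11). The gap was narrower but still complete at day 5, from 21.4 to 39.9 against 85.5 to 155 (1.72 ± 0.16, limma adjusted p = 1.2e-08). At week 10 the groups touched, with saline livers from 16.7 to 53.2 around a median of 35.2 and NDMA livers from 39.6 to 95.7 around 66.8. Of the 8 NDMA livers, 5 lay above the highest saline liver, and Bax was still called (0.95 ± 0.22, limma adjusted p = 0.0050). At month 10 the medians were 27.4 in saline and 41.1 in NDMA livers, with 6 of 13 NDMA livers above the saline maximum of 41.7. The log2 fold change there, 0.55 ± 0.16, had a limma adjusted p of 0.029 but was under the fold threshold, so Bax was not called.

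WT livers of day 1 had Bax from 6.49 to 191 with a median of 17.8 in saline and from 24.2 to 146 with a median of 68.0 after NDMA. The 191 is the library of D209074, and all 26 NDMA livers were above the saline median. The log2 fold change was 1.74 ± 0.21 (SE, limma adjusted p = 8.6e-09), 1.88 without the 2 libraries of opposite sex genes and 1.89 without D209074. At day 2 the medians were 22.5 and 96.3, and D215004 was the 1 saline liver above the lowest NDMA liver of 54.6 (1.74 ± 0.29, limma adjusted p = 0.0011, and 2.01 without it). At day 5 the medians were 23.6 and 80.7 (1.40 ± 0.31, limma adjusted p = 0.016). Here D215012 was again the 1 saline liver above the lowest NDMA liver, and the fold change was 1.67 without it. The day 5 call was lost without saline mouse D202009 or D202010, with limma adjusted p of 0.057 and 0.056. At week 10 the medians were 26.0 in saline and 22.6 in NDMA livers, and at month 10 they were 26.1 and 27.5, with overlapping ranges at both times.

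Pmaip1, the gene of NOXA, was low in Mgmt-/- saline livers, at 5.66 normalized counts or less on days 1, 2 and 5. In Mgmt-/- mice of day 1 it ran from 0 to 3.06 normalized counts in saline and from 6.90 to 41.8, with a median of 21.9, after NDMA. No NDMA liver reached down to the saline range (3.28 ± 0.30, limma adjusted p = 6.0e-11). The same held at day 2, when saline livers were at 4.45 or less and NDMA livers from 25.9 to 41.6 (3.69 ± 0.29, limma adjusted p = 2.8e-10), and at day 5, with at most 5.66 against 13.3 to 36.4 (2.60 ± 0.31, limma adjusted p = 6.9e-07). At week 10 Pmaip1 was under the filter. Its saline livers then reached 2.04 and its NDMA livers ran from 0 to 12.4 with a median of 7.93. With no filter on low values, where 5.61% of genes were called higher, Pmaip1 was called at week 10 (2.33 ± 0.49, limma adjusted p = 0.0029), with 7 of 8 NDMA livers above every saline liver. At month 10 the medians were 0 and 1.61, and the ranges overlapped. In WT livers the Pmaip1 medians were 1.38 in saline and 5.81 in NDMA livers of day 1. At day 5 they were 1.08 and 4.64, and the ranges overlapped at both times. The saline libraries D215004 of day 2 and D215012 of day 5 had Pmaip1 at 11.6 and 11.7, above all WT NDMA livers of those days.

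Bbc3, the gene of PUMA, moved with batch as well as with treatment. Among Mgmt-/- mice of day 1 the 8 saline livers of batch 191212Eng ran from 0 to 1.63 normalized counts and the 8 NDMA livers from 0.860 to 4.02. In batch 200803Eng the 4 saline livers ran from 3.06 to 13.9 and the 4 NDMA livers from 22.6 to 55.2. Only in batch 200803Eng were the groups apart. Over both batches the log2 fold change was 1.53 ± 0.31 (SE, limma adjusted p = 0.00025), and within 200803Eng alone it was 1.97 ± 0.43 (limma adjusted p = 0.0086). Within 191212Eng alone Bbc3 was under the filter. At day 2 the Mgmt-/- medians were 1.42 and 2.03, and at day 5 they were 1.79 and 0.563. At week 10 all Mgmt-/- livers came from batch 200803Eng, with saline from 13.9 to 36.4 and NDMA from 4.34 to 42.3. The log2 fold change of Bbc3 was then -0.75 ± 0.31 (limma adjusted p = 0.13), and without NDMA mouse D209008, the highest of its group, it was -0.96 (limma adjusted p = 0.036), a call in the other direction from day 1.

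Bcl2l1, whose long product opposes BAX, had the smallest log2 fold change of the mitochondrial members in Mgmt-/- livers of day 1. It ran there from 8.23 to 31.2 normalized counts with a median of 12.3 in saline and from 11.1 to 62.1 with a median of 21.2 after NDMA. Only 2 NDMA livers lay above the saline maximum, while 11 of 12 lay above the saline median (0.63 ± 0.18, limma adjusted p = 0.010). Within batch 191212Eng the log2 fold change was 0.67 and called, and within 200803Eng it was 0.53 and not called (limma adjusted p = 0.42). The later Mgmt-/- estimates of Bcl2l1 lay between 0.14 and 0.39, none of them called. In WT the estimate was 0.38 ± 0.17 at day 1 (limma adjusted p = 0.10) and -0.43 ± 0.21 at month 10 (limma adjusted p = 0.61).

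**Figure D2:**
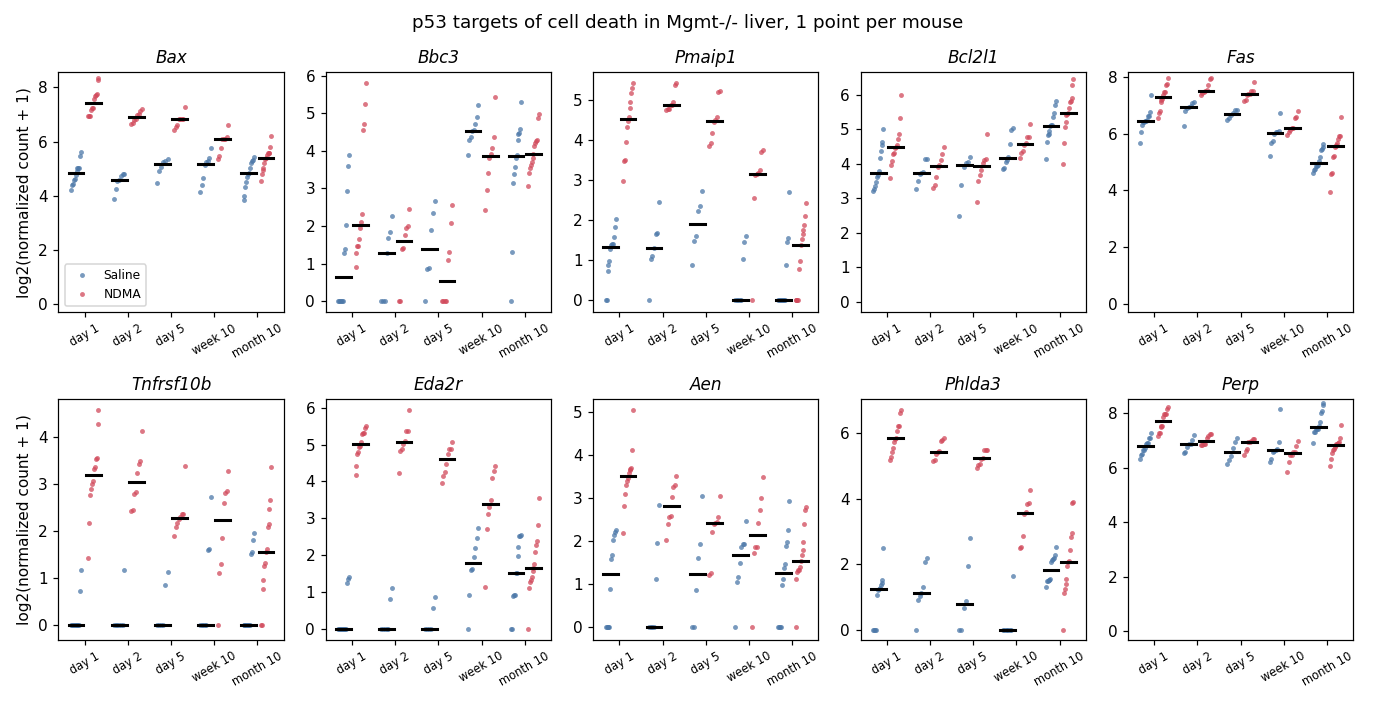
Log2(normalized count + 1) of each member (y axis) in every Mgmt-/- liver, saline and NDMA at the 5 times (x axis), with 1 point per mouse and a line at each group's median; the 2 day 5 saline libraries with kidney transcripts are left out. Bax, Pmaip1, Tnfrsf10b, Phlda3 and Eda2r show groups that do not meet at days 1, 2 and 5, and of these Phlda3 is the 1 still apart at week 10. The share of all genes whose groups do not meet is not given here.

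Among the death receptors, Eda2r went from near 0 to clear detection in Mgmt-/- livers. At day 1 its saline livers ran from 0 to 1.64 normalized counts, with a median of 0, and its NDMA livers from 17.2 to 44.3 with a median of 31.5. The groups were apart (4.67 ± 0.26, limma adjusted p = 1.6e-16). At day 2 the highest saline liver was at 1.15 and NDMA livers ran from 17.8 to 60.4 (4.84 ± 0.31, limma adjusted p = 6.9e-12). At day 5 the highest saline liver was at 0.822 and NDMA livers ran from 14.5 to 32.8 (4.32 ± 0.31, limma adjusted p = 1.9e-10). By week 10 the saline livers had a median of 2.46 and a maximum of 5.60, and NDMA livers ran from 1.18 to 20.5 with a median of 9.52. Of the 8 NDMA livers, 6 lay above all saline livers, and Eda2r was called (1.64 ± 0.48, limma adjusted p = 0.026). This call was lost without any 1 of NDMA mice D209005, D209006, D209029 and D209030 or saline mice D209003 and D209027, with limma adjusted p from 0.053 to 0.068. At month 10 the medians of Eda2r were 1.86 and 2.15, and the gene was under the filter.

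For WT mice Eda2r had a saline median of 0 at days 1, 2 and 5 and NDMA medians of 11.4, 9.72 and 7.55. The highest saline libraries were D209074 at day 1 with 16.9, D215004 at day 2 with 34.8 and D215012 at day 5 with 3.35. Eda2r was called at day 1 (3.00 ± 0.30, limma adjusted p = 4.7e-11) and day 2 (2.74 ± 0.62, limma adjusted p = 0.0092), with fold changes of 3.25 without the 2 libraries of opposite sex genes, 3.23 without D209074 and 3.31 without D215004. Without D209074 and the 2 libraries of opposite sex genes together the day 1 value of Eda2r was 3.42. At day 5 it was under the filter, and with no filter it was called (2.29 ± 0.56, limma adjusted p = 0.036), where 0.989% of all genes were called higher. Its mean reached the filter when 1 of 5 libraries was left out. Without saline mouse D202009, D202011, D215010 or D215011 the limma adjusted p of Eda2r at day 5 lay between 0.069 and 0.11, and without NDMA mouse D215014, a library of 202626 reads with Eda2r at 0, it was 0.0015 (2.76). At week 10 Eda2r was under the filter, with WT medians of 0.704 and 3.26 and 7 of 8 NDMA livers above the saline median, and with no filter it had 1.11 ± 0.51 (unadjusted p = 0.037, limma adjusted p = 0.87). In edgeR on whole reads the day 2 difference of Eda2r was 2.43 with an adjusted p of 0.077, and DESeq2 gave 2.08 and no adjusted p.

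Fas was expressed in every liver and moved less. Mgmt-/- livers of day 1 had it from 50.5 to 166 normalized counts with a median of 87.3 in saline and from 94.2 to 246 with a median of 156 after NDMA. Of the 12 NDMA livers, 5 lay above all saline livers (0.80 ± 0.15, limma adjusted p = 7.4e-05). Fas was called within batch 191212Eng (0.99 ± 0.18) and not within 200803Eng (0.43 ± 0.22, limma adjusted p = 0.32). At day 2 the groups were apart, at 76.9 to 140 against 165 to 252 (0.74 ± 0.13, limma adjusted p = 0.00012), as they were at day 5, at 88.7 to 114 against 140 to 224 (0.73 ± 0.12, limma adjusted p = 5.5e-05). Had the 2 libraries with kidney transcripts been kept, the day 5 fold change of Fas would have been 1.29 (limma adjusted p = 0.031). At week 10 the log2 fold change was 0.36 ± 0.18 (limma adjusted p = 0.24) and at month 10 it was 0.29 ± 0.20 (limma adjusted p = 0.40). At week 10 NDMA medians of 72.1 stood against 64.8 in saline. In WT livers of day 1 Fas had an adjusted p of 0.0087 by limma with a fold change of 0.38 ± 0.11, under the fold threshold, and medians of 85.0 and 112.

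Tnfrsf10b stayed under the filter in all 10 comparisons. In Mgmt-/- livers it nevertheless did not overlap between groups early: at day 1 saline livers reached 1.26 normalized counts and NDMA livers ran from 1.72 to 23.0. At day 2 saline livers reached 1.27 and NDMA livers ran from 4.38 to 16.7, and at day 5 they reached 1.20 against 2.73 to 9.50. With no filter, Tnfrsf10b was called at all 3 early times, with log2 fold changes of 3.01 ± 0.28, 2.97 ± 0.34 and 2.03 ± 0.36 (limma adjusted p = 1.0e-09, 3.4e-07 and 0.00021). In that fit 6.39% of genes were called higher at day 1, 8.5% at day 2 and 7.71% at day 5. At week 10 its NDMA median was 3.88 against 0 in saline (1.24 ± 0.49, limma adjusted p = 0.14 with no filter). In WT livers of week 10 Tnfrsf10b was at 0 in all 8 saline mice and in 7 of 8 NDMA mice.

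Phlda3, the AKT antagonist, was the member that stayed apart longest. By limma its Mgmt-/- fold change at day 1 was the highest of the members, while within batch 191212Eng (4.91 against 4.76) and in edgeR on whole reads (6.42 against 5.51) that of Eda2r was higher. In Mgmt-/- saline livers it reached 4.59 normalized counts at day 1, 3.55 at day 2, 5.96 at day 5 and 2.09 at week 10. NDMA livers ran from 35.3 to 103, from 34.1 to 56.4, from 29.3 to 43.9 and from 4.61 to 18.1 at the same times, with medians of 56.0, 42.0, 36.5 and 10.8. The groups were apart at each of these times. The log2 fold changes of Phlda3 were 4.92 ± 0.27, 4.31 ± 0.26, 4.19 ± 0.33 and 3.16 ± 0.44 (limma adjusted p = 4.0e-17, 2.8e-12, 1.1e-09 and 2.1e-05). The week 10 mean sat close to the filter: without any 1 of NDMA mice D209005, D209006, D209029, D209030 and D209031 Phlda3 was no longer tested, and in the 11 other fits it was called each time, with fold changes from 3.13 to 3.38. It passed the filter through its NDMA level alone, with 7 of 8 saline livers at 0, so these 11 calls are no separate check. With no filter, where 5.61% of genes were called higher, Phlda3 was called at week 10 too. At month 10 the saline livers ran from 1.48 to 4.76 and the NDMA livers from 0 to 13.8, with medians of 2.56 and 3.22, and 4 of 13 NDMA livers were above the saline maximum.

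WT mice had Phlda3 saline medians of 0.555, 0.389 and 1.08 normalized counts at days 1, 2 and 5 and NDMA medians of 17.2, 20.9 and 16.7. It was called at each time, with log2 fold changes of 3.07 ± 0.33, 3.35 ± 0.59 and 2.94 ± 0.50 (limma adjusted p = 8.2e-10, 0.0017 and 0.0035). Without D215004 and D215012 the day 2 and day 5 values of Phlda3 were 3.95 and 3.31. Without the 2 libraries of opposite sex genes the day 1 value was 3.33, and without D209074 as well it was 3.52. By DESeq2 the day 2 difference of Phlda3 was 1.95 with an adjusted p of 0.16, so that call ended there. At week 10 the Phlda3 medians were 0.477 in saline and 0.434 in NDMA livers.

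Aen, the apoptotic nuclease whose promoter windows hold the element shown above, was called in Mgmt-/- livers of day 1. Its saline livers ran from 0 to 3.79 normalized counts and its NDMA livers from 3.53 to 32.2 with a median of 10.5, and 11 of 12 NDMA livers lay above all saline livers (2.44 ± 0.36, limma adjusted p = 1.7e-06). At day 2 the NDMA median of Aen was 6.09 and at day 5 it was 4.30, both under the filter. With no filter Aen was called at day 2 (1.98 ± 0.43, limma adjusted p = 0.0018) and not at day 5 (0.95 ± 0.45, limma adjusted p = 0.19). In WT livers of day 1 the Aen medians were 1.07 and 6.07. With no filter, where 3.33% of WT genes were called higher at day 1, Aen was called (1.67 ± 0.27, limma adjusted p = 6.8e-06), as were Pmaip1 (1.30), Tnfrsf10b (1.36) and Bbc3 (0.68). At day 2, where that fit called 1.51% of genes higher in WT, none of these 4 was called.

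Perp was the member called in opposite directions at day 1 and month 10. At day 1 it ran in Mgmt-/- livers from 80.0 to 153 normalized counts with a median of 111 in saline and from 141 to 296 with a median of 208 after NDMA (0.91 ± 0.13, limma adjusted p = 1.9e-06). Of the 12 NDMA livers, 10 lay above all saline livers. At days 2 and 5 the fold changes were 0.20 and 0.24 and were not called. At month 10 the saline livers ran from 119 to 335 with a median of 178 and the NDMA livers from 65.7 to 190 with a median of 114. Of the 13 NDMA livers, 12 lay below the saline median, and Perp was called lower (log2 fold change -0.86 ± 0.16, limma adjusted p = 0.00041). In WT livers of month 10 the medians of Perp were 143 and 139 (-0.09 ± 0.23, limma adjusted p = 0.91).

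**Figure D3:**
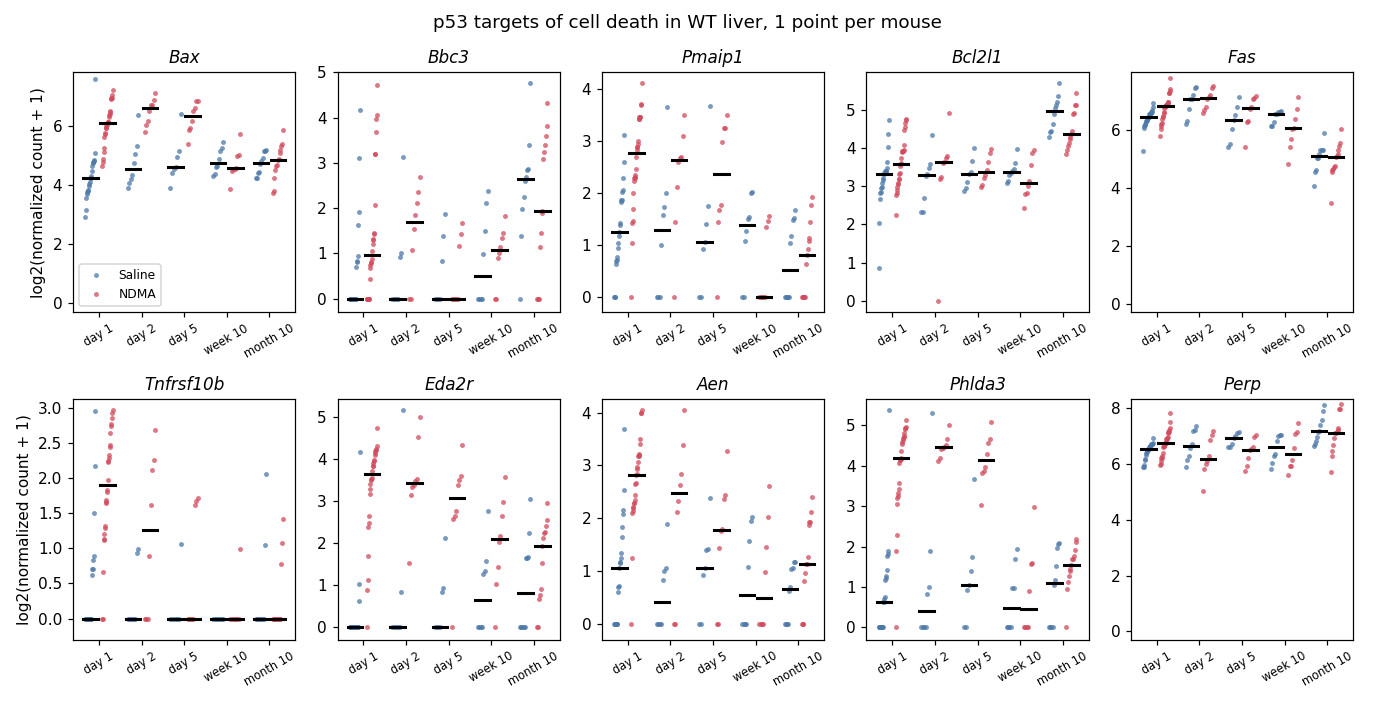
Log2(normalized count + 1) of each member (y axis) in every WT liver, saline and NDMA at the 5 times (x axis), with 1 point per mouse and a line at each group's median. The medians of Bax, Phlda3 and Eda2r part at days 1, 2 and 5, while saline points lie above the lowest NDMA point at each of these times. For Bax, Phlda3 and Eda2r these number 6, 12 and 3 at day 1, 1 each at day 2, and 1, 1 and 3 at day 5.

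The WT result at day 1 was not the same in every batch. Within batch 191212Eng, with 8 mice a group, Bax (2.00 ± 0.19), Phlda3 (3.93 ± 0.30) and Eda2r (3.80 ± 0.29) were called, where 5.44% of all genes were called higher. Within batch 210901Eng, with 12 NDMA and 9 saline mice, Bax (1.87 ± 0.25), Phlda3 (2.93 ± 0.35), Aen (2.14 ± 0.38) and Fas (0.60 ± 0.18) were called, where 6.36% of all genes were, and Eda2r was under the filter. Within batch 200803Eng, with 6 NDMA and 4 saline mice, 0 genes of 8965 were called by limma, with 264 at an unadjusted p under 0.05, and Bax had a log2 fold change of 0.97 ± 0.78, Phlda3 of 1.83 ± 1.31 and Eda2r of 1.73 ± 1.04 (limma adjusted p = 1.0 for each). This batch holds both NDMA libraries with opposite sex genes and the saline library D209074. In Mgmt-/- mice of day 1, 8 members were called higher within each of the 2 batches, where 9.33% of all genes were called higher in 191212Eng and 2.64% in 200803Eng. Bbc3 and Tnfrsf10b were under the filter in 191212Eng, and Fas and Bcl2l1 were not called in 200803Eng. Within none of the 3 WT batches of month 10 was a member called.

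**Figure D4:**
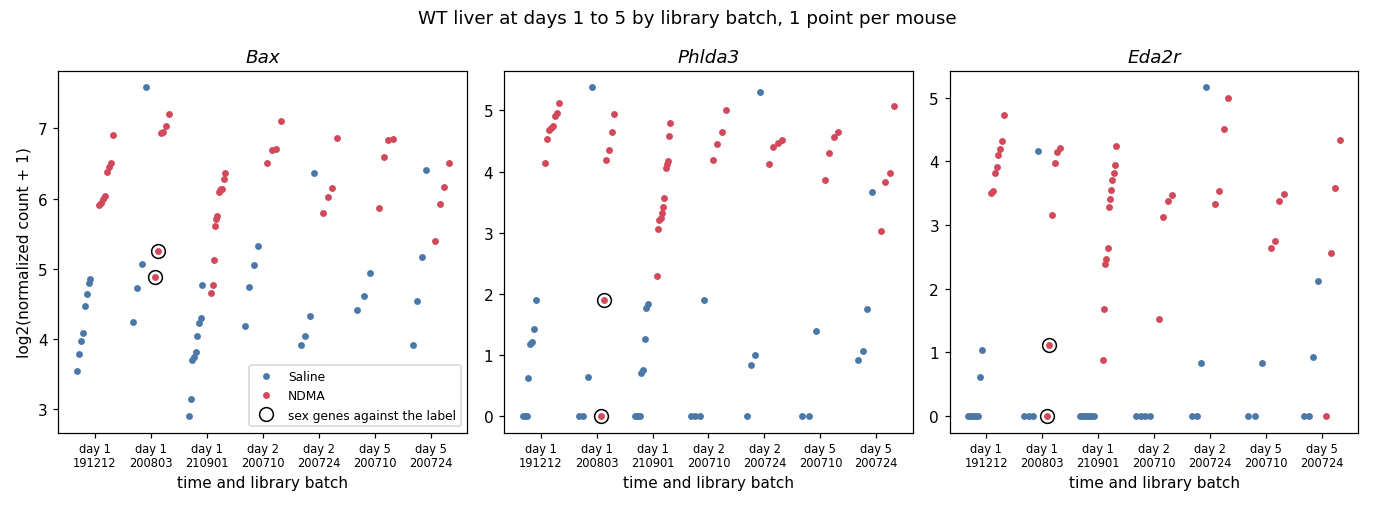
Log2(normalized count + 1) of Bax, Phlda3 and Eda2r (y axis) in WT livers at days 1, 2 and 5, split by library batch (x axis), with 1 point per mouse; rings mark the 2 libraries whose sex-linked transcripts go against their labels. In the day 1 batch 200803Eng both ringed NDMA points lie low and 1 saline point, at 191 normalized counts of Bax, lies high.

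Whether a response was larger early than late was tested within each genotype, as the mean log2 fold change of days 1, 2 and 5 minus that of week 10 and month 10. In Mgmt-/- livers Eda2r (3.63 ± 0.32), Phlda3 (2.75 ± 0.31), Pmaip1 (1.74 ± 0.34), Bax (1.49 ± 0.17) and Perp (1.03 ± 0.15) were larger early (limma adjusted p = 1.0e-16, 8.8e-12, 7.1e-05, 1.6e-11 and 1.3e-07), where 6.24% of all genes were. Each Perp value of this test includes its fall at month 10, when it was called lower, and so does not measure an early rise alone. Fas (0.42 ± 0.17, limma adjusted p = 0.090), Bbc3 (0.59 ± 0.38, limma adjusted p = 0.32) and Bcl2l1 (0.01 ± 0.21, limma adjusted p = 0.98) did not pass. Eda2r, Phlda3 and Pmaip1 reach the filter through their NDMA levels, which were highest early, so passing it favours a larger early value. With no filter, where 3.83% of genes were larger early, these genes passed as well (limma adjusted p = 1.9e-16, 1.7e-11 and 9.4e-05). There Tnfrsf10b (1.54, limma adjusted p = 0.00055) and Aen (1.23, limma adjusted p = 0.025) passed too. After scaling all libraries to 1 common total Fas did pass (0.50, limma adjusted p = 0.019). In edgeR on whole reads Bax, Eda2r and Perp passed, while Phlda3 had 2.20 (adjusted p = 0.071) and Pmaip1 1.38 (adjusted p = 0.17). That fit had 548 of 10092 genes larger early. With no filter in edgeR, where 473 of 19270 genes were larger early, Tnfrsf10b passed (2.68, edgeR adjusted p = 0.0051) and Aen did not (1.05, edgeR adjusted p = 0.25). All Mgmt-/- livers of days 2 and 5 came from batch 191212Eng and all late ones from 200803Eng, so for those days time and batch cannot be told apart. Within 200803Eng alone, where day 1 was set against the late times, Phlda3 (3.53), Eda2r (3.21), Bax (1.93) and Perp (1.80) were larger early (limma adjusted p = 0.00060, 0.0054, 0.00080 and 0.00049), Fas (0.10, limma adjusted p = 0.95) was not, and Pmaip1 was under the filter. Bbc3 had 2.13 ± 0.66 in that batch (limma adjusted p = 0.086), over 3 times its value over both batches. Of 10136 genes tested within that batch, 55 were larger early.

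The WT responses of Phlda3 (2.78 ± 0.44), Eda2r (1.86 ± 0.46) and Bax (1.65 ± 0.26) were larger early (limma adjusted p = 4.8e-06, 0.0057 and 3.0e-06), where 2.06% of all genes were. Without the 2 libraries of opposite sex genes the values were 2.87, 1.94 and 1.70. Without all 5 libraries that stood apart Phlda3 had 3.28 and Bax 1.93, Fas passed (0.58, limma adjusted p = 0.041) and Eda2r was under the filter. There 315 of 9086 genes were larger early. Phlda3 and Eda2r reach the filter through their early NDMA levels here too. With no filter, where 1.01% of genes were larger early, both passed as well (limma adjusted p = 1.2e-05 and 0.010). There Pmaip1 passed too (1.39, limma adjusted p = 0.039). Scaling to the same total also let Fas pass (limma adjusted p = 0.046). Within batch 200710Eng, which holds males, Phlda3 (3.86), Bax (1.87) and Fas (1.41) were larger early (limma adjusted p = 8.9e-05, 2.5e-05 and 0.00027). In that fit 298 of 8803 genes were larger early. Within 200724Eng, which holds females, no gene passed, with Bax at an unadjusted p of 0.0027 (limma adjusted p = 0.45), Phlda3 at 1.62 and Fas at -0.24. Within 200803Eng no gene passed and no member had an unadjusted p under 0.05. In edgeR on whole reads Phlda3 had 2.73 with an adjusted p of 0.060. Fas (0.50 ± 0.19, limma adjusted p = 0.13), Bcl2l1 (0.52 ± 0.26, limma adjusted p = 0.30) and Perp (-0.06 ± 0.19, limma adjusted p = 0.93) did not pass.

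The difference in response between the genotypes was tested on whole reads with edgeR as an interaction of genotype and treatment. Every member called in Mgmt-/- livers at the 3 early times had a higher limma estimate there than in WT livers, yet no member passed the test at any of these times. At day 1 the interaction on the log2 scale was 2.10 for Pmaip1, 2.19 for Phlda3, 1.88 for Eda2r and 0.92 for Bax, with edgeR adjusted p of 0.086, 0.20, 0.52 and 0.21, and 0.0106% of all genes passed. At day 2 it was 3.82 for Eda2r (edgeR adjusted p = 0.073), at 4.15% of genes, and at day 5 it was 2.26 for Eda2r (edgeR adjusted p = 0.32), at 2.33%. At week 10 it was 0.99 for Bax (edgeR adjusted p = 0.062), at 5.75%. Members with an unadjusted p under 0.05 numbered 4, 5, 2 and 2 at these 4 times. At month 10, where 1.46% of genes passed, Perp did (-0.94, edgeR adjusted p = 0.037). The early values rested in part on the 5 WT libraries that stood apart. Without them the day 1 interaction was 1.97 for Pmaip1, 1.22 for Phlda3, 0.18 for Eda2r and 0.58 for Bax, and that of Eda2r was 0.93 at day 2 and 1.58 at day 5, with edgeR adjusted p of at least 0.16 for each.

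These calls depended on the model. By limma, Pmaip1 (1.97, adjusted p = 0.016) and Eda2r (1.68, adjusted p = 0.0495) passed at day 1 and Pmaip1 at day 2 (2.67, adjusted p = 0.012), and Perp at month 10 did not (-0.77, adjusted p = 0.18). Without the 5 libraries Pmaip1 still passed by limma at day 1 (1.79, adjusted p = 0.032) and day 2 (2.32, adjusted p = 0.017), and Eda2r at day 1 did not (1.25, adjusted p = 0.075). For these limma fits the share of all genes that passed is not given here. With no filter on low values, edgeR also passed Phlda3 (2.14) and Eda2r (3.88) at day 2, and Pmaip1 (4.30) and Phlda3 (4.31) at week 10, where 3.11% and 3.37% of all genes passed. The genotypes shared 2 batches at day 1, 1 at month 10 and none in between, so at days 2 and 5 and week 10 genotype and batch cannot be told apart.

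Males and females were compared in their response at each time. All WT males of days 2 and 5 and week 10 are in batch 200710Eng and all WT females in 200724Eng, so a sex difference there cannot be told apart from a batch difference. No member passed in any of the 10 limma fits, in which 5 of 61 values for members had an unadjusted p under 0.05. Of all genes 0% passed in 8 of them, 0.114% in Mgmt-/- livers of week 10 and 0.338% in those of month 10. The smallest unadjusted p of a member was that of Fas in WT livers of day 5 (p = 0.0042, limma adjusted p = 0.77, difference of 1.53 ± 0.47).

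Other genes of the pathway were read beside the members. Of 18 p53 targets of cell cycle arrest and feedback, 12, 11, 11, 3 and 2 were called higher in Mgmt-/- livers from day 1 to month 10, and none lower, where the shares of all genes called higher were 9.06%, 12.4%, 11.1%, 7.27% and 4.75%. At day 1 their median log2 fold change was 2.27, beside 0.02 over all genes tested. The top 3 there were Cdkn1a (4.42 ± 0.15), which inhibits cyclin-dependent kinases, Ccng1 (3.44 ± 0.16), which encodes cyclin G1, and Trp53inp1 (2.93 ± 0.20), a p53 cofactor. At month 10, when no member was called higher, Cdkn1a (2.13 ± 0.31, limma adjusted p = 2.2e-05) and Btg2 (1.22 ± 0.26, limma adjusted p = 0.0027), an antiproliferative gene, were still called. Cdkn1a then ran from 1.48 to 23.5 normalized counts in saline and from 19.5 to 105 in NDMA livers. In WT livers 10, 5, 6, 0 and 0 of the 18 were called higher, in the same order of times, beside 5.01%, 3.33%, 2.22%, 0.0249% and 0% of all genes.

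The rest of the mitochondrial route was read from a list of 31 genes, of which 3 were called higher and 2 lower in Mgmt-/- livers of day 1, where 9.06% of all genes were called higher. The 3 of 31 lie near that share, as do the counts of week 10 and month 10 beside 7.27% and 4.75%. Those higher were Bcl2a1b (1.95 ± 0.31), a protective relative of BCL2, Apaf1 (1.86 ± 0.35), which builds the apoptosome, and Bak1 (0.82 ± 0.30), the partner of BAX in pore formation. Aifm1 (-0.70 ± 0.10), a mitochondrial flavoprotein, and Bik (-0.68 ± 0.21), a BH3-only gene, were lower. Of all genes 8.64% were called lower at day 1 and 7.5% at day 2, and the 2 of 31 lie near the share of day 1. The list's median at day 1 was 0.15, beside 0.02 over all genes. At day 2, 7 were called higher and Aifm1 lower, led by Bcl2a1a (3.28 ± 0.38) and Bcl2a1b (3.17 ± 0.38), where 12.4% of all genes were called higher, and at day 5, where 11.1% were, 6 were higher, led by the same 2 genes (2.87 ± 0.37 and 2.48 ± 0.32). The 3 called at week 10 were Birc5 (2.55 ± 0.50), an inhibitor of apoptosis made in dividing cells, Bcl2a1b (2.04 ± 0.46) and Bok (1.64 ± 0.21), a relative of BAX, all above Bax itself in log2 fold change. Bok alone was called at month 10 (0.68 ± 0.22). In WT livers Bcl2a1b was called higher and Endog lower at day 1, Cycs higher at day 2 and no listed gene later. Of all WT genes 5.01% were called higher at day 1 and 3.33% at day 2, and the share called lower is not given here. The genes named for days 2 and 5 and week 10 were picked with their values in view.

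Of 17 other genes of the death receptor route, 2, 4, 4, 3 and 2 were called higher in Mgmt-/- livers from day 1 to month 10, and none lower, beside 9.06%, 12.4%, 11.1%, 7.27% and 4.75% of all genes. The 2 of day 1 lie near the share of all genes, and the list's median there was 0.01, beside 0.02. Tnfrsf12a, the receptor of TWEAK, and Mlkl, the pore protein of necroptosis, were those called at day 1 (2.46 ± 0.26 and 1.31 ± 0.22), and the same pair was called at month 10 (1.05 ± 0.23 and 1.41 ± 0.28). Among WT livers Mlkl, Ripk3 and Tnfrsf12a were called at day 1, Mlkl at day 5 and none at day 2, week 10 or month 10. From day 1 to month 10, 5.01%, 3.33%, 2.22%, 0.0249% and 0% of all WT genes were called higher.

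Markers of other cells were read at the same times. In Mgmt-/- livers 8.64%, 7.5%, 6.71%, 3.88% and 2.99% of all genes were called lower from day 1 to month 10, and the counts of markers below stand beside these shares and those called higher, 9.06%, 12.4%, 11.1%, 7.27% and 4.75%. Of 10 T and NK cell genes, 5, 6, 6, 1 and 0 were called higher in Mgmt-/- livers from day 1 to month 10. Their summed level had saline medians of 54.8, 58.6, 42.6, 24.5 and 9.25 normalized counts and NDMA medians of 169, 375, 390, 45.2 and 18.1. Gzma led in the NDMA livers of the first 3 times, and no listed gene was at 0. In WT livers 4, 4, 3, 0 and 0 of them were called higher, beside 5.01%, 3.33%, 2.22%, 0.0249% and 0% of all genes. The WT sums were 48.3, 61.1 and 36.7 in saline and 89.3, 141 and 118 in NDMA livers at the 3 early times. In Mgmt-/- livers the 8 macrophage and Kupffer cell genes, of which 2, 5, 5, 4 and 2 were called higher and 3, 0, 0, 0 and 0 lower, summed to saline medians of 1083, 1066, 1119, 829 and 465 and NDMA medians of 1344, 2343, 2433, 1631 and 780, led by Lyz2. Of the 8 genes of neutrophils and their precursors, 3, 3 and 5 were called lower and 0, 1 and 0 higher at the 3 early times, when their sums were 440, 302 and 309 in saline and 279, 126 and 64.0 in NDMA livers, led by S100a8. At week 10 the direction was the other one, with Camp and Ngp called higher and sums of 76.5 and 188. Of the 6 hepatocyte genes 4, 3, 1, 1 and 0 were called lower, and Apoa1 was called higher at month 10. The sum of the 6 at day 1, led by Alb, was 305862 in saline and 198174 in NDMA livers. Of the 8 genes of stellate cells and fibroblasts, 1, 1, 1, 4 and 3 were called higher and 4, 3, 2, 0 and 0 lower, and their sum, led by Dcn, was 401 in saline and 672 in NDMA livers of week 10. The 6 genes of dividing cells, of which 1, 3, 2, 3 and 1 were called higher, summed to saline medians of 358, 290, 222, 20.7 and 12.2 and NDMA medians of 423, 599, 311, 110 and 36.9. Of the 6 endothelial genes 1, 2, 2, 1 and 1 were called higher and 3, 1, 2, 0 and 0 lower, with sums of 418 and 327 at day 1, led by Clec4g. Of the 6 B and plasma cell genes Cd79b was called lower at day 1 and Jchain higher at week 10, when the sums were 13.8 and 32.6 and Cd79a was at 0 in saline livers. None of the 5 kidney tubule genes passed the filter in any of the 10 comparisons. In WT livers of days 1, 2 and 5, 4, 2 and 2 of the macrophage and Kupffer cell genes were called higher and 1, 2 and 0 lower. Of the stellate cell and fibroblast genes 1, 1 and 0 were called higher there and 3, 1 and 1 lower. Of the hepatocyte genes 0, 2 and 1 were called lower. At WT day 1 Ltf of the neutrophil list was called higher and Stab2 of the endothelial list lower. The shares of all WT genes called lower are not given here, so the WT counts of markers called lower have no scale beside them. The part of these cells in the levels of Bax, Fas and the other members was not tested.

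Across libraries the members did not share 1 pattern. The mean of their standardized log2 levels was taken over the 8 members with a mean of at least 5 in 94 Mgmt-/- libraries, and each member was set against the mean of the other 7. Pearson's r was 0.85 for each of Bax, Phlda3 and Eda2r, 0.67 for Pmaip1, 0.27 for Perp, 0.26 for Fas, -0.01 for Bcl2l1 and -0.07 for Bbc3. In 117 WT libraries, over 6 members, r was 0.76 for Eda2r, 0.69 for Phlda3, 0.68 for Bax, 0.11 for Perp, 0.09 for Fas and 0.02 for Bcl2l1. Outside the members, the genes most like their mean were Ccng1 (0.90), Snhg15 (0.86), Saa3 (0.84), Psrc1 (0.82) and Gm13056 (0.82) in Mgmt-/- and Ccng1 (0.85), Ddit4l (0.79), Ccl7 (0.74), Cxcl9 (0.74) and Cxcl10 (0.74) in WT. The libraries share treatments, ages and batches, so these values describe them and carry no p.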

How the data were processed

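Liver RNA in 213 libraries, each taken as 1 mouse, was measured by 3′ digital gene expression, and 1 of the 214 labelled samples was not analysed here. Per the labels, STAR placed the reads on GRCm38 (mm10), and the authors deposited signal values, that is, counts divided by DESeq2 size factors, 1 table per genotype; tool versions are not given in the sources used here. In 209 libraries the deposited signal steps gave whole reads for 100% of values (tolerance of 0.1 read). Groups followed the labels. NDMA was compared with saline by limma 3.58.1 (trend and robust, R 4.3.3) on log2(value + 1) with sex and batch, for genes whose mean reached 5, with Benjamini-Hochberg adjustment; the interaction with genotype used edgeR 4.0.16 quasi-likelihood fits. Scripts were tested on simulated data. The 2 Mgmt-/- saline livers with Kap over 1000 were left out. Alternatives covered pseudocounts of 0.5 and 5, no filter, a minimum mean of 20, edgeR and DESeq2 1.42.0 on whole reads, scaling to the same total, no covariates, each batch alone and leaving out libraries; the edgeR fits with no filter, the WT day 1 libraries left out singly, 2 uses of the sex gene check, the fits without 5 WT libraries that stood apart and the early against late fits within batches were added after seeing the data. The members and gene lists were chosen with earlier results of these data known. All 10 members are named; of each pathway list, the called genes with the largest change at day 1 and month 10 in Mgmt-/- mice, up to 3, are named, and others are given as counts or were chosen after their values were seen. For 1 marker list the result is not reported here.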

Additional observations from a re-analysis of the deposited data

Results flagged for a closer look

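Among 73 member and group pairs of 4 to 10 livers, 6 held a liver far from the others on the log2 scale, where chance gives about 1 in 20. Fas was at 76.9 normalized counts in Mgmt-/- saline mouse D389012 of day 2, with 110 in the next lowest. Pmaip1 was at 0 in Mgmt-/- NDMA mouse D209032 of week 10, with 4.89 in the next. Perp was at 285 in Mgmt-/- saline mouse D209001 of week 10, with 122 in the next highest. Phlda3 was at 38.6 in WT saline mouse D215004 of day 2, with 2.72 in the next. Bcl2l1 was at 0 in WT NDMA mouse D215006 of day 2 and Eda2r at 0 in WT NDMA mouse D215014 of day 5, which are libraries of 150038 and 202626 reads.

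The response of Perp to NDMA at month 10 differed between the genotypes by -0.944 on the log2 scale in edgeR, a difference that did not pass by limma. By limma, responses differed between early and late times for Bax (1.65), Phlda3 (2.78) and Eda2r (1.86) in WT mice and for Bax (1.49), Pmaip1 (1.74), Phlda3 (2.75), Eda2r (3.63) and Perp (1.03) in Mgmt-/- mice. The Perp value includes its fall at month 10. In edgeR on whole reads Phlda3 passed in neither genotype (edgeR adjusted p = 0.060 in WT and 0.071 in Mgmt-/-). Pmaip1 did not pass there in Mgmt-/- mice (edgeR adjusted p = 0.17). In the 2 libraries with kidney transcripts, which entered no comparison, Bax was at 52.1 and Pmaip1 at 7.39 in D389011 and Bcl2l1 at 31.0 in D389017, above the highest of the other 6 saline livers of day 5 (39.9, 5.66 and 17.4).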

How the results depend on the processing

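No paired analysis was run because each library carries its own code, taken here as its own mouse, and none is shared between groups. Members called higher numbered 7 in WT at day 1 with no filter, in limma and in edgeR alike, against 3, where 3.33% and 4.69% of all genes were called higher. A minimum mean of 20 left 3 members tested in WT at each early time and gave 1, where 4.81%, 6.04% and 4.54% of all genes were called higher. In Mgmt-/- it left 5, 4, 4 and 4 and gave 5, 3, 3 and 1 from day 1 to week 10, where 9.33%, 13.1%, 11.7% and 7.25% of genes were. Within batch 200803Eng alone WT day 1 gave 0, and DESeq2 on whole reads gave 1 (Bax) at WT day 2, where Phlda3 missed the threshold and Eda2r had no adjusted p; the cause was not tested. With no fold threshold, 1 member (Bax) was called higher in Mgmt-/- at month 10. Leaving out single libraries gave 1 to 3 members called higher in WT at day 5 and 1 to 3 in Mgmt-/- at week 10, and 0 to 1 called lower in the latter. The shares of all genes in these fits and in the DESeq2 fit of WT day 2 are not given here. The genotype interaction called 2 members at day 1 and 1 at day 2 by limma, 2 at day 2 and 2 at week 10 by edgeR with no filter, and 0 at month 10 by limma or without sex and batch. In the edgeR fits with no filter 3.11% and 3.37% of all genes passed, and the shares in the limma fits are not given here. Without the 5 WT libraries that stood apart limma called 1 member at days 1 and 2 and edgeR 0. For early against late in Mgmt-/- mice edgeR called 3 members, where 548 of 10092 genes were larger early. In WT mice limma called 0 members within batch 200724Eng and 0 within 200803Eng, where 0 genes of all those tested were called. The cause was not tested. Scaling to the same total added Fas in both genotypes.

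Scaling to the same total moved the median of all genes to 0.20, 0.19, 0.17 and 0.24 (log2) in Mgmt-/- at days 1, 2 and 5 and week 10. Over all genes the numbers called higher and lower then became 1635 and 512, 1681 and 413, 1451 and 412, and 1162 and 177, against 911 and 869, 1170 and 710, 1037 and 624, and 704 and 376. No member's called direction reversed under any setting that was run. Tnfrsf10b, Aen, Bbc3 and Pmaip1 had means mostly under 5, and 4 WT NDMA libraries had under 300000 reads. Whether depth limits these members was not tested.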
